A study of Mus musculus with 6 samples.

Results

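The transcription factor p53, the genes it is known to switch on, and the BCL2 family of apoptosis regulators were followed in C2C12 cells, a line of mouse myoblasts, after cyclic stretch. The module lists 40 genes, chosen by name with earlier results of these data known, and matched to the gene symbols of the deposited table. Of these, 39 were among its 22375 rows. The symbol Sesn1bp had no row. RNA-seq covered 3 libraries of unstretched cells, the CON group, and 3 libraries of cells stretched cyclically at 15% elongation for 4 h, the 4H group. No other treatment or genetic change is named in the labels, and the stretch was meant to imitate mechanical overloading. Each library is labelled as a biosample, but whether these came from separate cultures is not stated, so the p-values measure the spread between these libraries, which may be technical. The RNA is from whole plates of 1 cell line, where fewer cells of a kind and less RNA per cell cannot be told apart.

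In unstressed cells p53 is kept low by MDM2, a ubiquitin ligase that marks it for degradation and whose own gene is a p53 target. Stress stabilizes the p53 protein, so the p53 mRNA and the activity of the protein are separate quantities, and RNA-seq measures only the first. Active p53 raises genes that stop the cell cycle, such as Cdkn1a, genes that repair DNA, and genes that open the mitochondrial path to cell death. On that path, BAX and BAK form pores in the outer mitochondrial membrane, survival proteins such as BCL-2, BCL-xL and MCL-1 hold them back, and BH3-only proteins such as PUMA, NOXA and BIM release them. Many of these genes are also controlled by factors other than p53.

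Values are FPKM as the authors deposited them, fragments scaled to the length of the transcript and to the mapped fragments of the library. A set of 3 values gives replicates 1, 2 and 3 in that order, and other values are the mean ± SD over n = 3 libraries. Differences are log2 fold changes of 4H minus CON on log2(FPKM + 0.5), from limma with Benjamini-Hochberg adjustment over all genes whose mean reached 0.5 FPKM, and a gene rose or fell where the adjusted p was at most 0.05. Folds of genes with little RNA come out too small on it. The threshold of the study for differential expression also asks for a log2 fold change of 1 or more in size.

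Of the 39 genes, 38 passed the filter on low values. In the 4H group 16 of them rose, 10 fell and 12 did not pass the test. Among the rises, Bik passed the filter through the 4H group. The 26 that passed are 68.4% of the 38, where 46.7% of all 11593 genes tested passed. Rises were 16 of 38 beside 22.6% of all genes, and falls were 10 of 38 beside 24.1% of all genes. Only Gadd45a also reached a log2 fold change of 1 in size, as did 3.88% of all genes (2.61% higher and 1.28% lower). The other genes lay between -0.61 and 0.76 on the log2 scale. The median of the 38 genes was 0.09, that of all genes -0.01. In 29 of the 38 genes the libraries of the groups did not overlap, beside 56.7% of all genes. In 17 of them every 4H library was the higher and in 12 the lower, beside 27.5% and 29.2% of all genes. A change of at least 0.5 in size that passed the test was found in 14 of the 38, beside 14.5% of all genes.

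**Figure D1:**
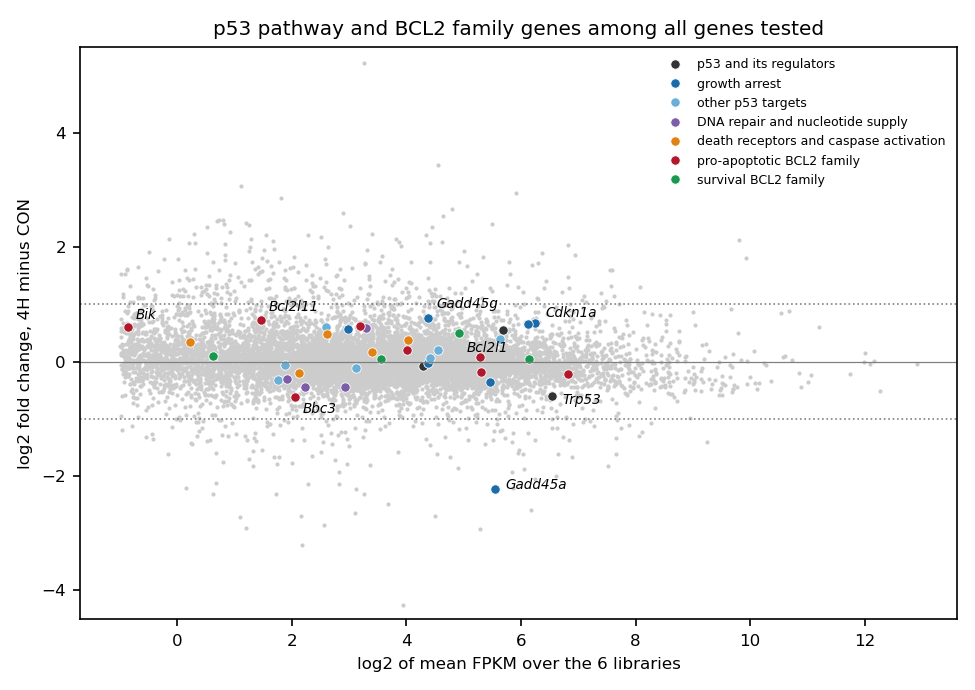
Log2 fold change of 4H minus CON (vertical axis) against the log2 of the mean FPKM over the 6 libraries (horizontal axis). Grey points are all 11593 genes tested, coloured points are the 38 genes of the module by role, and dotted lines mark -1 and 1. The coloured points lie between the lines except Gadd45a, at -2.23.

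Trp53, the gene of p53, spans chr11:69580359-69591873 (mm10, plus strand), was among the more abundant genes of the module and fell. It was at 115, 109 and 113 FPKM in CON and at 71.0, 75.4 and 75.4 FPKM in 4H. Every 4H library was below every CON library, and the 4H mean was 0.658 times the CON mean. The log2 fold change was -0.60 (standard error 0.04, limma adjusted p = 5.68e-06). Mdm2 moved the other way, with 43.2, 40.04 and 40.9 FPKM in CON and 64.0, 61.3 and 58.1 FPKM in 4H. These groups did not overlap either, and the log2 fold change was 0.56 (standard error 0.05, limma adjusted p = 3.59e-05), a 4H mean 1.48 times that of CON. Mdm4, whose protein binds p53 and blocks its activity without degrading it, was at 20.0 ± 0.30 FPKM in CON and 19.1 ± 1.35 FPKM in 4H, and the groups overlapped. Its log2 fold change was -0.07 (95% interval -0.20 to 0.06, limma adjusted p = 0.338).

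Growth arrest genes changed in both directions. Of the 7 genes, 4 rose, 2 fell and 1 did not pass the test, and the median log2 fold change was 0.57. Cdkn1a, which encodes the cyclin-dependent kinase inhibitor p21 and spans chr17:29090976-29100727 (plus strand), was at 61.5, 56.9 and 56.8 FPKM in CON and at 98.0, 94.2 and 87.9 FPKM in 4H. The lowest 4H value was thus well above the highest CON value, with a 4H mean 1.60 times that of CON (log2 fold change 0.67, standard error 0.05, limma adjusted p = 1.74e-05). Ccng1, the gene of cyclin G1, which recruits a phosphatase to MDM2, was at 56.6, 54.4 and 51.5 FPKM in CON and at 88.5, 84.9 and 82.9 FPKM in 4H. It rose by nearly the same amount as Cdkn1a (log2 fold change 0.65, standard error 0.04, limma adjusted p = 9.48e-06). The 2 polo-like kinases of the list, which act in the stress and cell cycle responses, did not rise. Plk2 fell from 49.2 ± 3.72 to 38.4 ± 1.10 FPKM (log2 fold change -0.35, limma adjusted p = 0.00123), and Plk3 was at 20.9 ± 0.79 and 20.7 ± 0.22 FPKM (log2 fold change -0.02, 95% interval -0.12 to 0.09, limma adjusted p = 0.792).

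**Figure D2:**
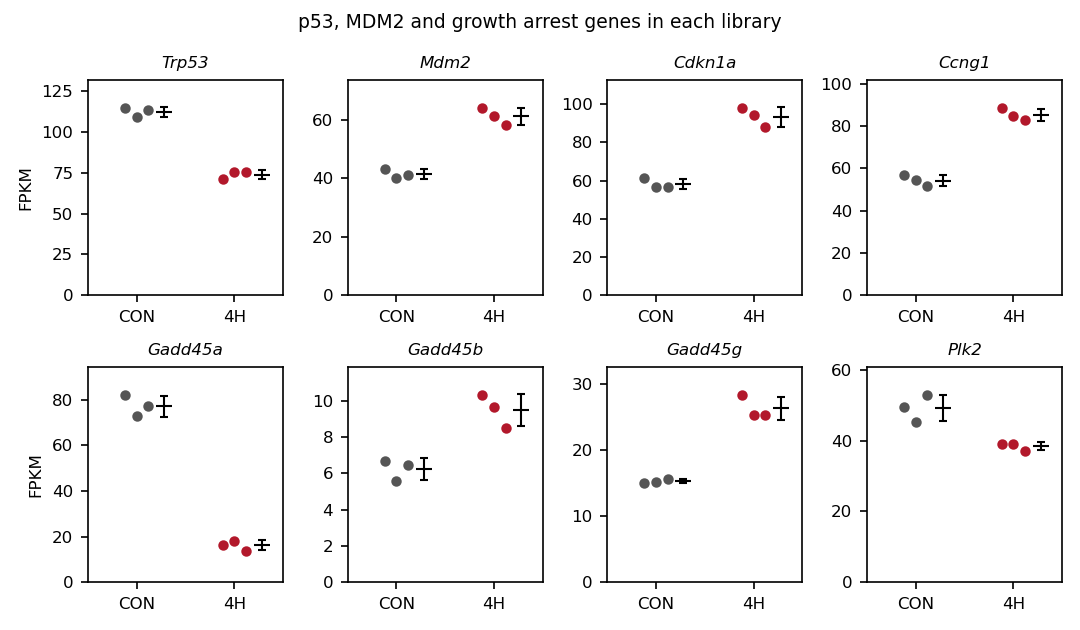
FPKM (vertical axes, each from 0) of 8 genes in the 3 CON libraries (grey) and the 3 4H libraries (red), with the mean and SD beside the points. Trp53, Gadd45a and Plk2 are lower in 4H with no overlap, and the other 5 genes are higher.

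Because Trp53 fell while Mdm2, Cdkn1a and Ccng1 rose, the DNA ahead of these 4 genes is shown with the letters that match the 10-base half-site p53 binds. A full p53 response element is a pair of such half-sites. The stretches are RefSeq promoter sequence of build GRCm38.p6 (mm10), written 5′ to 3′ on the strand of the gene, with exact half-site matches in capitals. A match is RRRCWWGYYY in every letter, where R is A or G, W is A or T and Y is C or T. They lie at chr17:29090889-29090958 (plus strand) for Cdkn1a, before the first of its 2 annotated starts, at chr10:117710909-117710968 (minus strand) for Mdm2, at chr11:40755437-40755496 (minus strand) for Ccng1 and at chr11:69580259-69580318 (plus strand) for Trp53.
Cdkn1a: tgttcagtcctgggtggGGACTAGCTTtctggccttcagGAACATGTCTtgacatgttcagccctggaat
Mdm2: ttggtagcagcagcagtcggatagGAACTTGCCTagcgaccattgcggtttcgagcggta
Ccng1: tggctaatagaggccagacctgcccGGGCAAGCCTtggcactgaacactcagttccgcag
Trp53: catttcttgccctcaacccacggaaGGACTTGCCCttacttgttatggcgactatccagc

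Of these 4 genes, only Cdkn1a had 2 exactly matching half-sites at most 13 bases apart, at -73 to -64 and -51 to -42 from that start. Half-sites with a mismatch were not searched for and stand in lower case. A response element that holds such a half-site, in Cdkn1a or in the other genes, is therefore not marked or counted. Such a pair was found in 24 of the 32851 mouse promoter windows of the same length (0.0731%), which run from 250 bases before to 50 bases after a start. A single half-site was found in 8.36% of all windows, and in 11 of the 42 windows of the 30 genes of the module that had one. It stood ahead of genes that rose (Cdkn1a, Mdm2, Ccng1, Polk), genes that fell (Trp53, Gadd45a, Bax), genes that did not pass the test (Aen, Ei24) and Bmf, which was not tested. Many of these genes were listed as p53 targets to begin with, a match is not a bound site, and p53 also binds outside these windows.

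The 3 GADD45 genes, whose small proteins sense stress, bind p21 and PCNA and activate the kinases upstream of p38 and JNK, did not move together. Gadd45a (chr6:67035096-67037457, minus strand) was at 82.0, 72.8 and 77.1 FPKM in CON, the highest level of the 3 paralogs, and at 16.6, 18.1 and 13.8 FPKM in 4H. The 4H mean was 0.210 times the CON mean, and the log2 fold change was -2.23 (standard error 0.09, limma adjusted p = 7.94e-07). Cdkn1a and Gadd45a each overlap an exon of an opposite-strand gene that has no row in the table, and whether counting used the strand is not stated. By the size of the change Gadd45a ranked 37 among the 11593 genes tested. Gadd45g was at 15.0, 15.2 and 15.7 FPKM in CON and at 28.3, 25.3 and 25.3 FPKM in 4H. It rose without overlap (log2 fold change 0.76, standard error 0.05, limma adjusted p = 1.41e-05). Gadd45b was at 6.71, 5.56 and 6.46 FPKM in CON and at 10.3, 9.67 and 8.52 FPKM in 4H, again without overlap (log2 fold change 0.57, standard error 0.09, limma adjusted p = 0.00142). In the CON group the order of the levels was therefore Gadd45a, Gadd45g and Gadd45b, and in the 4H group Gadd45g stood above Gadd45a in every library.

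The promoters of the 3 paralogs share some of their elements, which is why they are shown side by side. The stretches are RefSeq sequence of GRCm38.p6 on the strand of the gene, with capitals for the octamer ATTTGCAT, the CCAAT box (CCAAT) and the TATA box (TATAAA) on either strand. They lie at chr6:67037461-67037517 (minus strand) for Gadd45a, chr13:51846565-51846664 (plus strand) for Gadd45g and chr10:80929941-80930070 (plus strand) for Gadd45b.
Gadd45a: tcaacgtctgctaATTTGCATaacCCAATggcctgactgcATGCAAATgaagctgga
Gadd45g: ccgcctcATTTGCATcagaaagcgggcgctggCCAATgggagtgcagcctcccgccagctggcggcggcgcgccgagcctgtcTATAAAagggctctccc
Gadd45b: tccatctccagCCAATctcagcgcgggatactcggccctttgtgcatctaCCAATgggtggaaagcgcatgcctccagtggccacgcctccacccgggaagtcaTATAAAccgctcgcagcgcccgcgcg

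Gadd45a, which fell, and Gadd45g, which rose, both hold the octamer, found in 1.74% of all windows. All 3 hold a CCAAT box, found in 37.4% of all windows. The TATA box, found in 13.6% of all windows, was matched in the windows of the 2 paralogs that rose, not in that of Gadd45a, and in that of Trp53, which fell. Of the other motifs searched, the NF-kB site (GGGNNTTTCC) was found in the windows of Bbc3, Bcl2l1, Mcl1 and Trp53, of which 1 rose, 2 fell and 1 did not pass the test, and in 1.63% of all windows. The AP-1 site (TGANTCA) was found in those of Fas and Mdm4 and in 7.81% of all windows, and the cAMP response element (TGACGTCA) in that of Plk2 and in 1.79%. These are matches of letters, and what binds in them was not measured.

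Among the 7 other p53 targets in the table, 2 rose, 1 fell and 4 did not pass the test, with a median log2 fold change of 0.07. Over the alternatives this median ran from 0.03 to 0.13. Trp53inp1, a nuclear stress protein that promotes p53 phosphorylation, was at 4.91, 4.38 and 4.67 FPKM in CON and at 9.23, 6.48 and 6.54 FPKM in 4H. All 4H libraries were higher, replicate 1 most, and the log2 fold change was 0.60 (standard error 0.13, limma adjusted p = 0.00592). Without that library it was 0.45. Phlda3, a pleckstrin homology protein that restrains AKT, rose from 43.2 ± 3.07 to 56.6 ± 2.89 FPKM (log2 fold change 0.39, limma adjusted p = 0.000935). Perp, a membrane protein of desmosomes and of cell death, fell from 3.81 ± 0.23 to 2.95 ± 0.31 FPKM (log2 fold change -0.32, limma adjusted p = 0.0246), but the adjusted p reached 0.0820 over the alternatives, and it was above 0.05 without any 1 of CON replicates 1 and 3 and 4H replicates 1 and 3. The RNA-binding protein gene Zmat3, the exonuclease gene Aen, the endoplasmic reticulum protein gene Ei24 and the fructose-bisphosphatase gene Tigar had log2 fold changes between -0.11 and 0.20, with limma adjusted p from 0.119 to 0.575.

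Of the 4 genes of DNA repair and nucleotide supply, 3 fell and 1 rose, with a median log2 fold change of -0.37. Rrm2b, the p53-induced subunit of ribonucleotide reductase, fell from 8.79 ± 0.52 to 6.36 ± 0.39 FPKM (log2 fold change -0.44, limma adjusted p = 0.00143). Xpc, which recognizes damaged DNA for nucleotide excision repair, fell from 5.47 ± 0.42 to 3.90 ± 0.47 FPKM (log2 fold change -0.44, limma adjusted p = 0.00736). Ddb2, which finds ultraviolet lesions for the same path and overlaps an exon of Acp2 on the opposite strand, was at 4.26 ± 0.58 and 3.32 ± 0.25 FPKM (log2 fold change -0.31, limma adjusted p = 0.0460). That call was lost under 9 of 17 alternatives, with an adjusted p of up to 0.142, and held with only CON replicate 3 left out among the 6 libraries. Polk, the gene of a polymerase that copies past DNA lesions, was at 7.54, 7.81 and 7.76 FPKM in CON and at 12.6, 11.2 and 11.6 FPKM in 4H. It rose without overlap (log2 fold change 0.59, standard error 0.06, limma adjusted p = 0.000118).

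Of the 5 genes of death receptors and caspase activation, 3 rose and 2 did not pass the test, with a median log2 fold change of 0.35. Apaf1, the scaffold on which caspase-9 is activated, rose from 5.02 ± 0.22 to 7.24 ± 0.68 FPKM (log2 fold change 0.49, limma adjusted p = 0.00177). Casp8, the initiator caspase of the death receptors, rose from 14.1 ± 0.41 to 18.4 ± 0.73 FPKM (log2 fold change 0.38, limma adjusted p = 0.000444). Tnfrsf10b, a receptor of the death ligand TRAIL, rose from 9.86 ± 0.14 to 11.2 ± 0.36 FPKM (log2 fold change 0.17, limma adjusted p = 0.0270), a call lost without any 1 of CON replicates 1 and 3 and 4H replicates 1 and 2 and with a replicate block, with an adjusted p of up to 0.0794. Fas, a receptor low in these cells, was at 0.968 ± 0.10 and 1.38 ± 0.25 FPKM (log2 fold change 0.35, 95% interval 0.03 to 0.67, limma adjusted p = 0.0717). Leaving out 4H replicate 3 brought its adjusted p to 0.0268. Casp9, the caspase activated on APAF1, was at 4.70 ± 0.43 and 4.04 ± 0.40 FPKM (log2 fold change -0.20, 95% interval -0.42 to 0.03, limma adjusted p = 0.134).

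**Figure D3:**
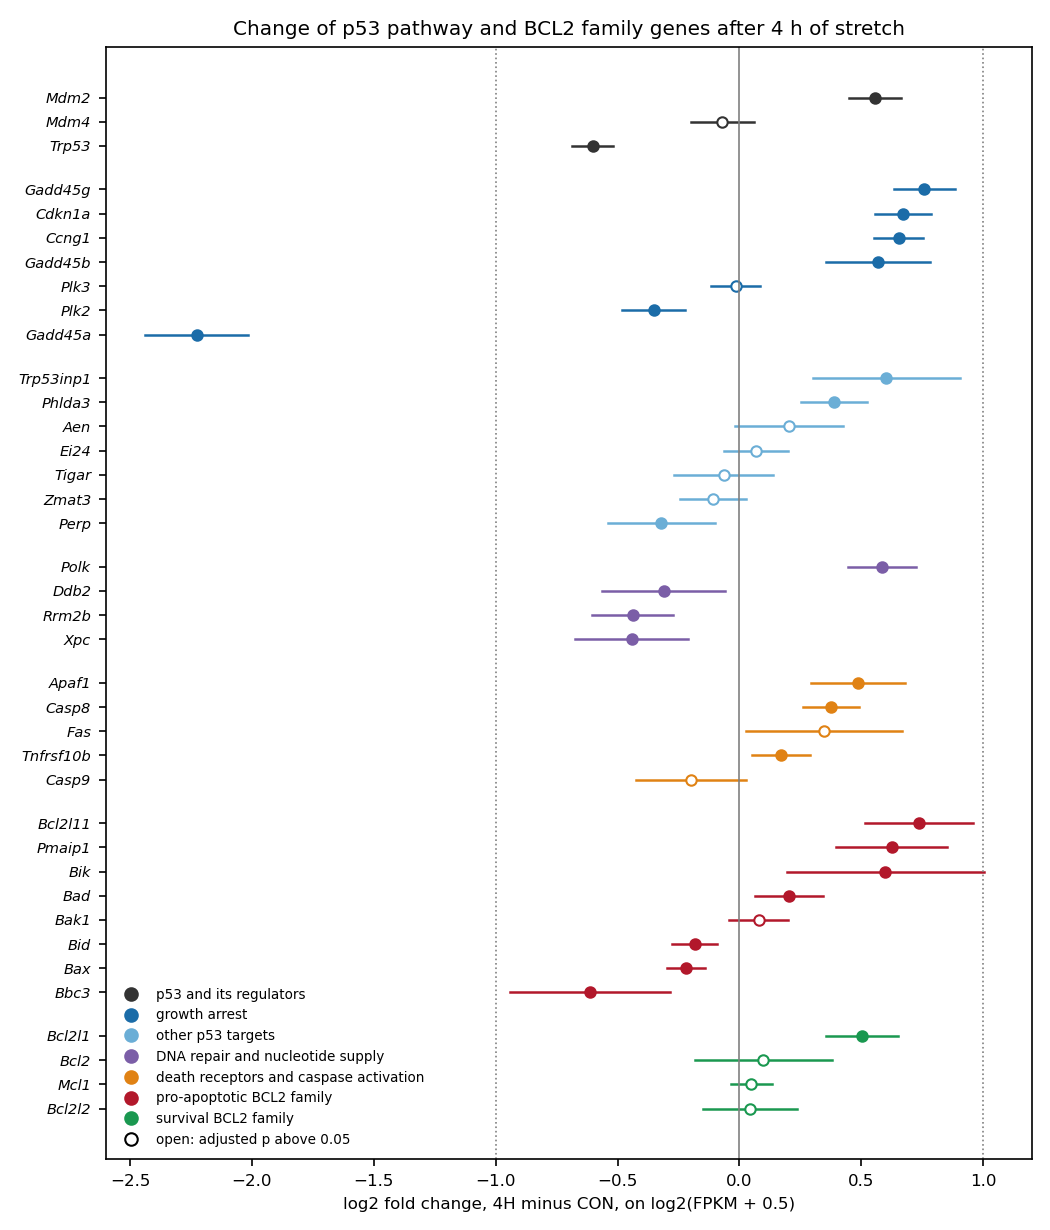
Log2 fold change of 4H minus CON on log2(FPKM + 0.5) for the 38 genes tested, grouped by role. Lines are 95% intervals from limma, filled points have an adjusted p of at most 0.05, open points do not, and dotted lines mark -1 and 1. Rises and falls stand side by side in most roles, and only Gadd45a passes -1.

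The pro-apoptotic BCL2 family split. Of its 9 genes, 8 were tested, of which 4 rose, 3 fell and 1 did not pass the test, with a median log2 fold change of 0.14. The genes that rose all encode BH3-only proteins, but so do Bbc3 and Bid among those that fell. Bcl2l11, the gene of BIM, was at 2.05, 1.70 and 2.08 FPKM in CON and at 3.55, 3.62 and 3.49 FPKM in 4H, with tight 4H values well above the CON values (log2 fold change 0.73, standard error 0.10, limma adjusted p = 0.000423). Pmaip1, the gene of NOXA, a BH3-only protein that binds MCL-1, was at 6.51, 7.64 and 7.07 FPKM in CON and at 12.4, 11.6 and 9.65 FPKM in 4H. It rose without overlap (log2 fold change 0.62, standard error 0.10, limma adjusted p = 0.00121). Bik was near the filter, at 0.302, 0.526 and 0.195 FPKM in CON and 0.728, 0.703 and 0.844 FPKM in 4H, and passed the filter through the 4H group. Its log2 fold change was 0.60 (standard error 0.18, limma adjusted p = 0.0236), and the call was lost without CON replicate 1 or 3 or 4H replicate 1 and with quantile normalization, with an adjusted p of up to 0.0834. Bad rose from 15.0 ± 1.01 to 17.3 ± 0.71 FPKM (log2 fold change 0.20, limma adjusted p = 0.0257). This call was lost without CON replicate 1 or 2 or 4H replicate 3, with an adjusted p of up to 0.0833.

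The 3 falls were those of Bbc3, Bax and Bid. Bbc3, the gene of PUMA, a BH3-only protein and well-known p53 target, was at 4.49, 4.92 and 5.90 FPKM in CON and at 2.59, 3.83 and 3.12 FPKM in 4H, so that the groups did not overlap although both were spread. Its log2 fold change was -0.61 (standard error 0.14, limma adjusted p = 0.00829). The BH3-only p53 targets Pmaip1 and Bbc3 thus changed in opposite directions. Bax, a pore-forming effector and the most abundant BCL2 family gene, was at 124, 119 and 120 FPKM in CON and at 107, 104 and 101 FPKM in 4H. The fall was small but larger than the spread (log2 fold change -0.22, standard error 0.03, limma adjusted p = 0.00101). Bid, which links caspase-8 to the mitochondria, fell from 42.2 ± 0.71 to 37.1 ± 1.49 FPKM (log2 fold change -0.18, limma adjusted p = 0.00615). The values of Bid, Bad and Bak1 are uncertain to the extent that an exon of each overlaps an expressed gene on the opposite strand (Bcl2l13, Gpr137 and Ggnbp1), and those of Bax in that 11.7% of its 75-base stretches recur in another gene. Bak1, the other pore-forming effector, was at 38.1 ± 0.89 and 40.3 ± 2.75 FPKM with overlap (log2 fold change 0.08, 95% interval -0.04 to 0.20, limma adjusted p = 0.262). Without 4H replicate 1, its adjusted p was 0.0331. Bmf, another BH3-only gene, was below the filter, at 0.109, 0.133 and 0.0949 FPKM in CON and 0.366, 0.159 and 0.188 FPKM in 4H.

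Among the 4 survival genes, Bcl2l1 rose and 3 did not pass the test. Bcl2l1, the gene of BCL-xL, was at 27.3, 23.5 and 23.8 FPKM in CON and at 33.8, 36.9 and 35.3 FPKM in 4H. The groups did not overlap, and the log2 fold change was 0.50 (standard error 0.06, limma adjusted p = 0.000367), a 4H mean 1.42 times that of CON. The FPKM table does not separate the long, protective form of Bcl2l1 from its short, pro-apoptotic splice form. Mcl1, the most abundant survival gene, was at 70.3, 70.8 and 67.1 FPKM in CON and at 72.8, 73.4 and 69.2 FPKM in 4H, with overlap between the groups (log2 fold change 0.05, 95% interval -0.04 to 0.13, limma adjusted p = 0.318). Bcl2l2, the gene of BCL-w, of whose 75-base stretches 12.2% recur in another gene, was at 11.5 ± 1.13 and 11.9 ± 0.84 FPKM (log2 fold change 0.04, 95% interval -0.15 to 0.23, limma adjusted p = 0.699). Bcl2 itself was low, at 1.74, 1.38 and 1.30 FPKM in CON and 1.75, 1.52 and 1.55 FPKM in 4H, and its groups overlapped (log2 fold change 0.10, 95% interval -0.18 to 0.38, limma adjusted p = 0.543).

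**Figure D4:**
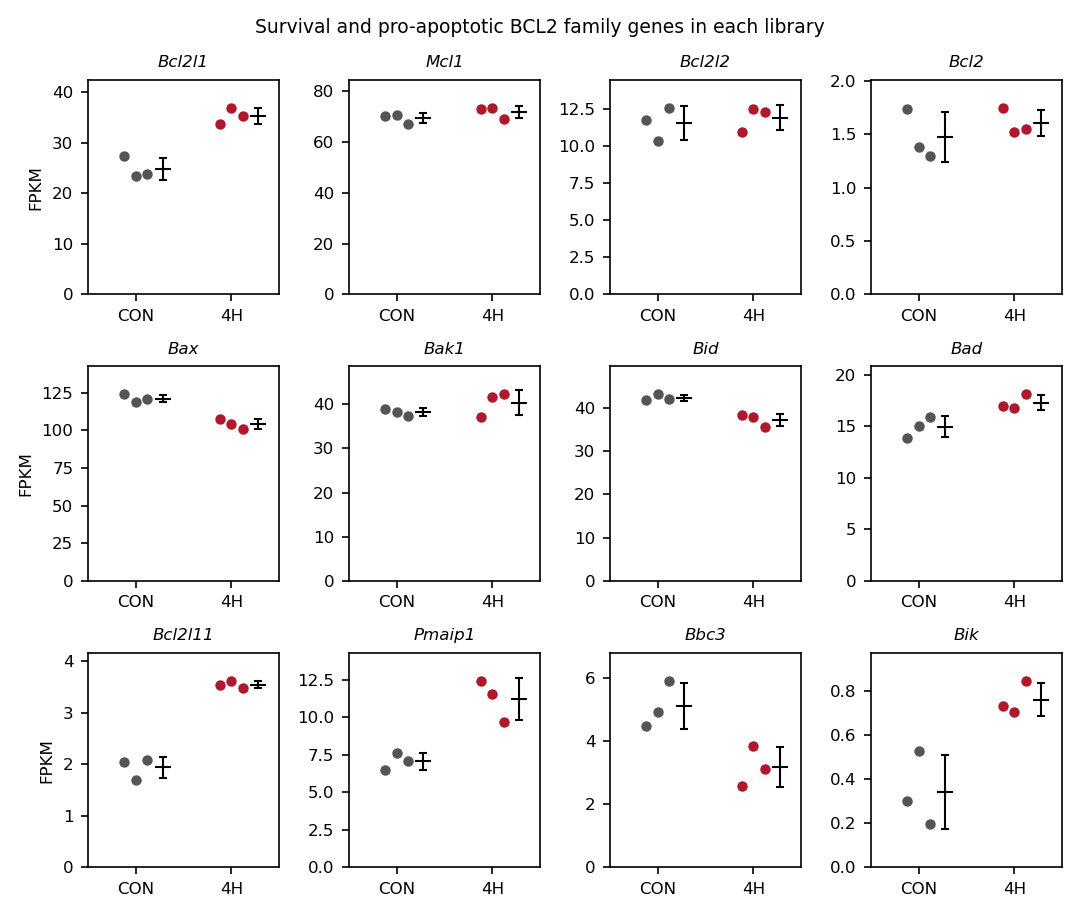
FPKM (vertical axes, each from 0) of the 4 survival genes (top row) and 8 pro-apoptotic genes in the 3 CON libraries (grey) and the 3 4H libraries (red), with the mean and SD beside the points. Bcl2l1, Bad, Bcl2l11, Pmaip1 and Bik are higher in every 4H library, Bax, Bid and Bbc3 are lower, and the other 4 overlap.

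Set side by side, growth arrest genes had a median log2 fold change of 0.57, pro-apoptotic genes 0.14 and survival genes 0.07, over 7, 8 and 4 genes tested. Under all 17 alternatives these medians stayed positive, at 0.49 to 0.64, 0.04 to 0.20 and 0.05 to 0.13. The summed FPKM gave another view, since abundant genes weigh most in it. The 9 pro-apoptotic genes summed to 231 ± 0.92 FPKM in CON and 218 ± 3.54 FPKM in 4H, and Bax was the largest entry in both. The 4 survival genes summed to 107 ± 3.34 FPKM in CON and 121 ± 3.21 FPKM in 4H. The pro-apoptotic sum was thus lower in every 4H library, at 214 to 220 against 230 to 232 FPKM. The survival sum was higher in every 4H library, at 118 to 124 against 105 to 111 FPKM. Single genes carried these shifts. The mean of Bax went from 121 to 104 FPKM, a larger fall than that of the sum, so the other pro-apoptotic genes together did not fall. Most of the rise of the survival sum was that of Bcl2l1, from 24.9 to 35.4 FPKM. The growth arrest sum, in which the fall of Gadd45a met the rises of Cdkn1a and Ccng1, overlapped between the groups, at 282 ± 11.4 and 290 ± 12.8 FPKM. The ratio of Bax to Bcl2 FPKM was 71.2, 85.9 and 92.6 in the CON libraries and 61.4, 68.5 and 64.8 in the 4H libraries. All 4H values were lower, a difference of -0.35 in the log2 ratio (two-sided exact permutation test, p = 0.1, the smallest that 3 against 3 libraries allow). Without CON replicate 3 the difference was -0.27 and without CON replicate 1 it was -0.46, and quantile normalization gave -0.17 (exact p = 0.3).

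Other genes of the pathway were counted in lists by function, to be read beside the 46.7% of all genes that passed the test (22.6% higher and 24.1% lower). The share that passed was 71.9% of the further p53 targets, 44.4% of the upstream genes, 47.4% of the other BCL2 family list, 43.8% of the caspase list, 23.1% of the death receptor signalling genes and 33.3% of the inhibitors of apoptosis. The upstream, BCL2 family and caspase lists were thus near the share of all genes, and the last 2 lists hold few genes. Of 32 further p53 targets tested, 12 rose, 11 fell and 9 did not pass the test, and the median log2 fold change was 0.01. Differentially expressed genes of this list, higher in the 4H group, included Thbs1 (2.04 on the log2 scale), a matrix glycoprotein, Ier3 (1.60), an immediate early gene, and Lif (1.21), a cytokine. Ier3 was also the most abundant, at 102, 86.7 and 96.3 FPKM in CON and 271, 295 and 302 FPKM in 4H. Next in abundance to Ier3 and Thbs1 were Rps27l, a ribosomal protein, which fell from 126 ± 4.90 to 98.7 ± 9.54 FPKM (limma adjusted p = 0.00293), and Ephx1, an epoxide hydrolase, which fell with a log2 fold change of -0.18 (limma adjusted p = 0.00322). Among 18 p53 upstream kinases, cofactors and ligases tested, 3 rose, 5 fell and 10 did not pass the test. Rpl11 and Rpl5, ribosomal proteins that bind MDM2 and by far its most abundant entries, fell, with log2 fold changes of -0.34 and -0.50 (limma adjusted p = 0.000123 and 3.49e-06). Cdkn2a, which encodes the MDM2 inhibitor ARF, was listed at 0 in all 6 libraries.

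Downstream of the BCL2 family, 3 of 16 caspase and apoptosome genes rose, 4 fell and 9 did not pass the test. None was differentially expressed, and the most abundant, Htra2 and Acin1, had log2 fold changes of -0.16 (limma adjusted p = 0.0877) and -0.21 (limma adjusted p = 0.00940). Of 13 death receptor signalling genes, 1 rose, Cflar, the gene of the caspase-8 inhibitor FLIP, from 21.8 ± 0.48 to 39.9 ± 1.61 FPKM (log2 fold change 0.86, limma adjusted p = 2.07e-06). Tnfrsf1a and Ripk1 fell and 10 did not pass the test, among them the most abundant, Mlkl, the effector of necroptosis (log2 fold change 0.01, limma adjusted p = 0.818). Of 6 inhibitors of apoptosis tested, Xiap and Birc6 rose, with log2 fold changes of 0.35 and 0.17, and 4 did not pass the test, among them the most abundant, Birc5 (log2 fold change -0.02, limma adjusted p = 0.832). Rps27l, Ephx1, Cflar, Ripk1, Birc6 and Cdkn2a were named after their values were seen. Of 19 other BCL2 family genes and binding proteins, 4 rose, 5 fell and 10 did not pass the test. The differentially expressed gene of this list, Bcl2l15, was listed at 0, 0.424 and 0.226 FPKM in CON and at 0.683, 1.13 and 1.25 FPKM in 4H, and passed the filter through the 4H group. The most abundant, Tmbim6 and Vdac1, had log2 fold changes of -0.13 (limma adjusted p = 0.0174) and 0.02 (limma adjusted p = 0.637).

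FPKM values summed to 395790 to 397260 per CON library and to 385146 to 387516 per 4H library, and no library stood apart, with a Pearson correlation across genes of 0.992 to 0.993 within a group and 0.967 to 0.970 between groups. The fragments behind an FPKM value cannot be read from it, so depth is unknown and no counting error is given. For each pair of libraries, ratios of values below 0.1 FPKM were densest within 1.55% of equality, in windows of 12 to 23 genes. Ratios far from equality were left out beforehand, so a large difference in depth could not have appeared. Myoblast markers were present in every library, with summed FPKM of 199 to 205 in the CON group and 287 to 301 in the 4H group, although Pax7 reached at most 0.605 FPKM. Of the 8 tested, 6 rose, among them Myod1 (1.74 on the log2 scale), and Myf5 fell (-0.67). Markers of differentiated myotubes summed to at most 2.52 FPKM in any library, with Mymx and Myh8 at 0. Summed FPKM was at most 0.387 for the endothelial and at most 0.553 for the epithelial list. Leukocyte markers summed to 6.73 to 8.51 FPKM in CON and 15.0 to 17.6 FPKM in 4H, nearly all from Cd68, a lysosomal protein, with Ptprc and Adgre1 at 0. Adipocyte markers summed to 7.47 to 9.27 and 11.1 to 11.7 FPKM, nearly all from Pparg, with Plin1 at 0. The part of these shifts in the changes described above was not tested.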

How the data were processed

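RNA-seq of C2C12 myoblasts covered 3 CON and 3 4H libraries, grouped by the labels of the samples. Replicates 1, 2 and 3 of the 4H group follow the biosample numbers of the labels and are titled 4H1, 4H3 and 4H4. The authors deposited 1 table of FPKM values with 1 column per library, from poly(A) RNA in strand-specific libraries. Per the labels, the submitters' processing notes name the genome build mm10. Which aligner, counting tool, strand setting and gene models they used is not given in the sources used here. FPKM is a normalized value, so the DESeq2 model of the paper, which takes counts, was not used. Genes whose mean over the 6 libraries reached 0.5 FPKM were tested by limma 3.58.1 under R 4.3.3 (functions lmFit and eBayes with a trend) on log2(FPKM + 0.5), two-sided, with Benjamini-Hochberg adjustment over all genes tested. The fit was tested on simulated data.

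The 40 genes and all lists were chosen with earlier results of these data known, so no test over a list was made. Values in every library are given for genes past the test whose log2 fold change was 0.5 or more in size and for Trp53, Mdm2, Cdkn1a, Bax, Bcl2, Bcl2l1 and Mcl1, and also for Bmf. Of the other lists, the differentially expressed genes and the 2 most abundant are named, and others as said beside them, while some genes of these lists are not reported here. GENCODE M21 (GRCm38) served for overlap, transcript length and GC content, and RefSeq promoter windows (GRCm38.p6) for sequences. The windows were searched on both strands for the p53 half-site and 6 other motifs. All 39 genes were in GENCODE M21 and 30 had a window. Of the 39, 12 overlap an exon of a gene on the opposite strand, Cdkn1a and Gadd45a among them, and Bax and Bcl2l2 overlap 1 on their own strand. For Bax and Bcl2l2, 11.7% and 12.2% of their 75-base stretches recur in another gene, so these values are uncertain. Plots were made with Python 3.11.15 and matplotlib 3.10.9.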

Additional observations from a re-analysis of the deposited data

How the results depend on the processing

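Of the 38 genes tested, 30 kept their side of the threshold under all of the 17 alternatives that gave a value, and no gene that passed the test changed direction under any of them. The number of genes of the module past both thresholds, 1, became 2 with a pseudocount of 0.1, which carried Bik to a log2 fold change of 1.03. Bik had no value with a filter at 1 FPKM and without 4H replicate 3, where it was below the filter. The number past both thresholds among all genes, 450, became 703 with libraries rescaled to TPM, where 12457 genes passed the filter. That rescaling raises the values while the pseudocount stays the same, and a pseudocount of 0.1 on FPKM gave 591. Plk3 changed sign with TPM (0.0198), Bcl2 with quantile normalization (-0.0089), and with 1 library left out Plk3 ran from -0.0466 to 0.0041 (without CON replicate 1) and Bcl2l2 from -0.0311 (without CON replicate 2) to 0.104, none past the test in either fit. With each library left out in turn, 13 to 15 genes of the module rose and 8 to 9 fell. CON and 4H libraries with the same biosample number share only a number: their deviations from the group means correlated at 0.02, -0.09 and -0.13. The library titles number the 4H group differently, and by title CON replicate 3 goes with 4H replicate 2, whose correlation of 0.18 was the highest of all 9 pairs, but only 2 pairs share a title number and no block on titles was run. A replicate block by biosample number left 15 rises and 9 falls, losing Perp and Tnfrsf10b. Removing the trend on GC content and transcript length in each library was chosen after the data were seen. It left 16 rises and 10 falls, with Zmat3 passing (adjusted p = 0.0458) and Ddb2 no longer passing. The median of all genes moved by less than 0.1 under every alternative, between -0.03 and 0.03. Depth is unknown, so changes of Bik, Bmf, Fas and Bcl2 rest on few fragments that cannot be counted.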

Other observations

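Genes of the pathway below the filter of 0.5 FPKM were not tested. The genes given here were chosen after their values were seen. Ptprv, a phosphatase gene induced by p53 in mouse cells, was at 0.101, 0.106 and 0.0644 FPKM in CON and at 0.356, 0.525 and 0.228 FPKM in 4H. Naip1, an inhibitor of apoptosis, was at 0.0232, 0 and 0.0126 FPKM in CON and at 0.126, 0.249 and 0.252 FPKM in 4H. Tnfrsf25, a death receptor, was lower in 4H, at 0.268, 0.402 and 0.560 FPKM in CON and 0.177, 0.137 and 0.0954 FPKM in 4H. More genes of the whole table were above 0 in every 4H library (14899 to 14972) than in any CON library (14125 to 14186), and its part in these low values was not tested. The p53 paralogs Trp63 and Trp73 had means of at most 0.0364 FPKM in either group. Hrk, Bcl2l10, Bcl2l14, Bcl2a1a, Bcl2a1d and Fasl were listed at 0 in all 6 libraries.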
